A study of Mus musculus with 17 samples.

Results

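Matricellular proteins are secreted into the space between cells, where they change how cells attach, signal and take up debris without forming the scaffold itself. The genes described here encode such proteins and close relatives that macrophages are known to make: Gpnmb, Lgals3, Mgp, Ecm1, Thbs1 and Fn1. They were taken from a list of 7 names and matched by symbol to probe sets through the platform annotation, and 6 of the 7 could be matched, out of 15780 named genes. The 7th, Spp1 (osteopontin), is not analysed here, because the annotation table used pairs its symbol with no probe set. The deposited values do hold a probe set numbered with an Entrez id for it, which was left out at this naming step. Its absence here says nothing about how high its signal was. The values come from F4/80hi macrophages of NZB/W mouse kidneys, with 1 array per sample and 17 arrays in all. NZB/W is a hybrid strain that spontaneously develops lupus nephritis, and the sort took cells with a high level of this macrophage surface antigen. The 6 prenephritic arrays are from mice 8 to 16 weeks old, which the titles call young. The 7 nephritic arrays are from mice between 2 and 6 weeks past the onset of proteinuria, not yet in terminal renal failure. The 4 remission arrays were taken between 3 and 4 weeks after complete remission, in mice given 1 dose of cyclophosphamide, 6 doses of CTLA4Ig, a costimulation blocker, and an antibody to CD154. Remission and these drugs cannot be told apart, nor can age and disease, since the labels give no age for the nephritic and remission mice. No label says that the arrays came from separate mice, and every p-value below rests on the scatter of arrays alone, which may be technical.

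Macrophages at sites of tissue damage can hold lipid and lysosomal cargo and secrete matrix-binding proteins, and genes such as Spp1, Gpnmb, Fn1 and Lgals3 are widely used to recognise macrophages near scarring tissue. Their products act through shared receptors: integrins bind fibronectin and the RGD motif of Gpnmb, CD36 and CD47 bind thrombospondin, and galectins bind sugar chains on many surface proteins. In the kidney, matrix proteins of this kind are also made by fibroblasts, mesangial cells and injured tubule cells, so their transcripts are not markers of macrophages alone.

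Promoter sequence was available in the RefSeq table of assembly GRCm38.p6 for 3 of the 6 genes, Gpnmb, Lgals3 and Ecm1. They are shown because a sequence was available. All 3 were lower in remission than in nephritic arrays, as was Mgp, for which no promoter sequence was available. The first pair of lines gives the 250 bases before the start of Gpnmb (chr6:49036268-49036517, plus strand) and of Lgals3 (chr14:47373610-47373859, plus strand). Capitals mark a GC box, searched as GGGCGG or CCGCCC, which Lgals3 has and Gpnmb lacks in this stretch.

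Gpnmb: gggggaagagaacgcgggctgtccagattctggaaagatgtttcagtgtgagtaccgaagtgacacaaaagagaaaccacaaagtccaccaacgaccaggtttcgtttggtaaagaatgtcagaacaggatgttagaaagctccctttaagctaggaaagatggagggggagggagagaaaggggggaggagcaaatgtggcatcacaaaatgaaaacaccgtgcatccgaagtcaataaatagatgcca

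Lgals3: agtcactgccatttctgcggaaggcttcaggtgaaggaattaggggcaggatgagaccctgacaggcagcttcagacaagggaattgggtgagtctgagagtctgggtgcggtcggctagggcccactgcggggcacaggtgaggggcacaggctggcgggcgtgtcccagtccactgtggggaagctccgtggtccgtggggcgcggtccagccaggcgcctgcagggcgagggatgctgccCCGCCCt

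The stretches differ in base composition, with 47.2% G and C before Gpnmb, 66.0% before Lgals3 and 54.0% before Ecm1, against a median of 52.4% over all promoters in the table. An AP-1 motif, searched as TGACTCA or TGAGTCA, was present in the promoters of Gpnmb and Ecm1 and absent from that of Lgals3. It is shown in capitals in 30-base windows, at chr6:49036515-49036544 on the plus strand for Gpnmb and at chr3:95739615-95739644 on the minus strand for Ecm1.

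Gpnmb AP-1 window: ccaggggcaagTGACTCAtgagcacgagtt

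Ecm1 AP-1 window: gcagcagggacTGAGTCAtggcaggaaaca

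The motif began 9 bases after the Gpnmb start and 64 bases before the Ecm1 start. It was present in 5.20% of 32851 promoter windows of 250 bases before and 50 bases after a start. Ecm1 also had a TATA box (TATAAA or TTTATA) 27 bases before its start, which 13.6% of windows hold. A GC box was present in Lgals3 and Ecm1 and in 35.7% of windows. The motif of MITF and TFEB (TCACGTG or CACGTGA, in 3.77% of windows), its variant TCATGTG or CACATGA (also 3.77%) and a PU.1 motif (GAGGAAGT or ACTTCCTC, in 3.20%) were not among the letters of these windows. All motifs were searched on both strands. The matches describe letters and show no binding.

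Pairs of arrays correlated between 0.942 and 0.994 over the named genes. All 14 macrophage markers had means above the array median, Adgre1, Csf1r and Lyz2 among them, and 3 of the 14 (Itgam, Mertk and Fcgr1) were higher in nephritic than prenephritic arrays. Signals of other cells were present too. Genes of proximal tubule cells had means above the array median for 19 of 21 markers. A score over proximal and distal tubule markers, the mean of their centred log2 values, ran from −0.98 to 0.70 in prenephritic, −1.88 to 0.55 in nephritic and −0.08 to 1.33 in remission arrays. Remission minus nephritic was above 0 for 20 of 21 proximal markers (median log2 difference 1.10), of which 1 passed by limma. It was above 0 for 21 of 21 distal tubule and collecting duct markers (median 0.91), of which 3 passed. Of 14 monocyte markers, 7 were higher in nephritic than prenephritic arrays and 6 lower in remission than nephritic arrays. Of 12 plasma cell markers, 6 were higher and 2 lower, then 1 higher and 4 lower. Over all genes, 6.74% were higher and 5.32% lower in the first comparison, and 3.27% higher and 10.0% lower in the second. In such bulk samples fewer cells of a type and less RNA per cell cannot be told apart.

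Nephritic arrays had a higher signal than prenephritic ones for 4 of the 6 genes, and 4 of the 6 were lower in remission than in nephritic arrays. Mgp, Gpnmb, Lgals3 and Thbs1 rose with nephritis and none of the 6 fell, by limma with Benjamini-Hochberg adjustment over all 15780 genes at a threshold of 0.05. In that comparison 6.74% of all genes rose, 5.32% fell and 12.1% changed in either direction. The median difference of the 6 genes was 0.52 on the log2 scale, beside −0.02 over all genes. The genes, and the lists of other genes, were chosen with earlier results of these data known. Their counts and medians beside those of all genes therefore describe them and are no test of the set. Between remission and nephritis Gpnmb, Ecm1, Lgals3 and Mgp fell and none rose, where 10.0% of all genes fell, 3.27% rose and 13.3% changed in either direction. The median difference of the 6 genes was −0.58, beside −0.03 over all genes. Between remission and prenephritic arrays none of the 6 passed the test, and 1 of 15780 genes did (0.00634%), a gene that was lower. At an unadjusted p below 0.05 in the same limma fit, the counts were 3 of 6 genes (Mgp, Thbs1 and Ecm1) and 2946 of 15780 (18.7%). The first and second of these comparisons share the nephritic arrays, so a rise and a later fall are not independent results.

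**Figure D1:**
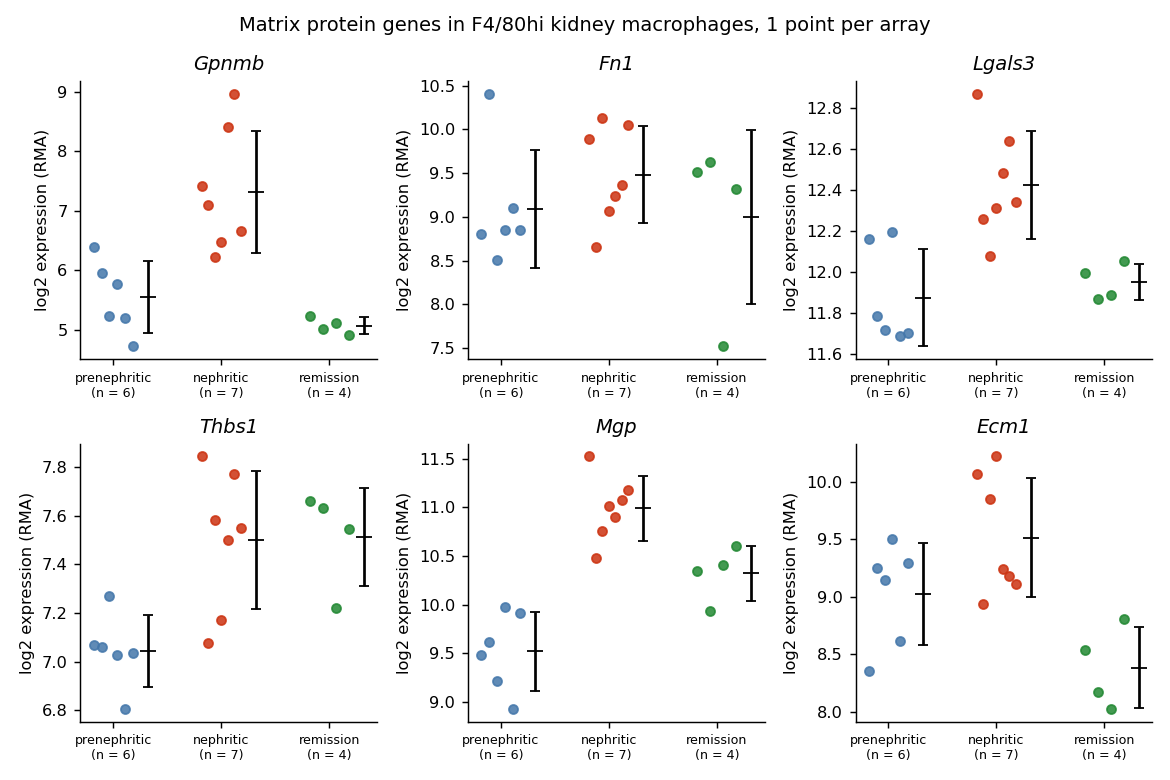
Log2 expression of the 6 genes on each array, with a point per array and the group mean ± SD as a bar beside the points, for prenephritic (n = 6), nephritic (n = 7) and remission (n = 4) arrays; each panel has its own vertical range. All 7 nephritic Mgp points lie above all prenephritic ones, and the 4 remission Gpnmb points lie between 4.91 and 5.24.

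Gpnmb, a membrane glycoprotein that macrophages raise when their lysosomes are loaded, had the largest fold differences of the 6 genes in both comparisons with nephritic arrays. Its log2 value was lowest at 4.72, with a median of 5.50 and a highest value of 6.38, in prenephritic arrays. In nephritic arrays it ran from 6.22 through a median of 7.10 to 8.97. In remission arrays it was 5.24, 5.01, 5.12 and 4.91. Nephritic replicates 5 and 6, at 8.41 and 8.97, were the highest, and 6 of 7 nephritic arrays lay above every prenephritic array. The group means were 5.54 ± 0.60 (SD, n = 6), 7.32 ± 1.03 (SD, n = 7) and 5.07 ± 0.14 (SD, n = 4). Gpnmb was 3.44-fold higher in nephritic than prenephritic arrays (log2 difference 1.78 ± 0.39, standard error, 95% interval 0.95 to 2.61, limma adjusted p = 0.0067). All 4 remission arrays lay below all 7 nephritic ones, and Gpnmb was 4.77-fold lower there (log2 difference −2.25 ± 0.44, adjusted p = 0.0035). Both calls were kept when each of the 17 arrays was left out in turn. Remission and prenephritic arrays overlapped, with a difference of −0.47 ± 0.46 (95% interval −1.44 to 0.50, adjusted p = 0.58). Prenephritic replicate 6 and remission replicate 4 lay below 4.99, the lower quartile of all genes.

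Lgals3 encodes galectin-3, a lectin that binds galactose-containing sugars on the cell surface and on damaged lysosomes. Its log2 values ran from 11.69 through a median of 11.75 to 12.20 in prenephritic arrays and from 12.08 through 12.34 to 12.87 in nephritic arrays. In remission arrays they were 11.99, 11.87, 11.89 and 12.06. Of the nephritic arrays, 6 of 7 lay above all prenephritic ones, and all 4 remission arrays lay below all nephritic ones. The group means were 11.87 ± 0.24 (SD, n = 6), 12.43 ± 0.26 (SD, n = 7) and 11.95 ± 0.09 (SD, n = 4). Lgals3 was 1.46-fold higher in nephritic than prenephritic arrays (log2 difference 0.55 ± 0.12, adjusted p = 0.0065), a call that no single array removed. It was 1.39-fold lower in remission than nephritic arrays (−0.47 ± 0.14, adjusted p = 0.031). That call was lost without nephritic replicate 6 (adjusted p = 0.052) and without remission replicates 1, 2 or 3 (adjusted p = 0.073, 0.10 and 0.080). Remission minus prenephritic was 0.08 ± 0.14, with a 95% interval from −0.22 to 0.38 and an adjusted p of 0.78.

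Mgp, matrix Gla protein, is a vitamin K-dependent inhibitor of calcification that also binds bone morphogenetic proteins. In prenephritic arrays it ran from 8.92 through a median of 9.55 to 9.97, and in nephritic arrays from 10.48 through 11.01 to 11.53. In remission arrays it was 10.35, 9.93, 10.40 and 10.60, and 3 of these 4 lay above every prenephritic array. All 7 nephritic arrays lay above all 6 prenephritic arrays. The group means were 9.52 ± 0.41 (SD, n = 6), 10.99 ± 0.33 (SD, n = 7) and 10.32 ± 0.28 (SD, n = 4). Mgp was 2.77-fold higher in nephritic than prenephritic arrays (log2 difference 1.47 ± 0.18, 95% interval 1.08 to 1.85, adjusted p = 8.3e-05), the smallest p of the 6 genes. It was 1.59-fold lower in remission than nephritic arrays (−0.67 ± 0.21, adjusted p = 0.041), and 3 of 4 remission arrays lay below all nephritic ones. This second call was close to the threshold. It was lost when prenephritic replicate 1 (adjusted p = 0.051), nephritic replicates 1, 4, 6 or 7 (0.070, 0.065, 0.061 and 0.071) or remission replicates 1, 2 or 3 (0.097, 0.17 and 0.074) were left out, and when the quantile normalization was repeated (0.054). Remission arrays were 1.74-fold above prenephritic ones (0.80 ± 0.21, 95% interval 0.35 to 1.25), with an unadjusted p of 0.0016 and an adjusted p of 0.15.

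Thbs1 encodes thrombospondin-1, which binds CD36 and CD47 and can free TGF-β from its latent form. In prenephritic arrays its log2 value ran from 6.81 through a median of 7.05 to 7.27. In nephritic arrays it ran from 7.08 through 7.55 to 7.84, and 5 of 7 arrays lay above every prenephritic one. Nephritic replicates 2 and 4, at 7.08 and 7.17, lay within the prenephritic range. In remission arrays the values were 7.66, 7.63, 7.22 and 7.55, and 3 of 4 lay above every prenephritic array. The group means were 7.04 ± 0.15 (SD, n = 6), 7.50 ± 0.28 (SD, n = 7) and 7.51 ± 0.20 (SD, n = 4). Thbs1 was 1.37-fold higher in nephritic than prenephritic arrays (0.46 ± 0.12, adjusted p = 0.021), a call close to the threshold. It was lost without prenephritic replicate 5 (adjusted p = 0.054), without that array and nephritic replicate 6 (0.10), and with a score of fibroblast markers as a covariate, where the difference was 0.32 (0.17). Remission and nephritic arrays differed by 0.01 ± 0.14 (95% interval −0.27 to 0.30, adjusted p = 0.96), and the sign of so small a difference turned when the quantile normalization was repeated (−0.0018). Remission minus prenephritic was 0.47 ± 0.14, the size of the nephritic difference, with an unadjusted p of 0.0040 and an adjusted p of 0.17.

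Ecm1, extracellular matrix protein 1, is a secreted glycoprotein that binds several matrix components. Its log2 values ran from 8.35 through a median of 9.19 to 9.50 in prenephritic arrays and from 8.94 through 9.24 to 10.22 in nephritic arrays. In remission arrays they were 8.54, 8.17, 8.02 and 8.80. Nephritic replicates 1, 3 and 4 (10.06, 9.85 and 10.22) lay above every prenephritic array, and the other 4 lay within the prenephritic range. The group means were 9.02 ± 0.44 (SD, n = 6), 9.51 ± 0.52 (SD, n = 7) and 8.38 ± 0.35 (SD, n = 4). Nephritic minus prenephritic was 0.49 ± 0.24, which did not pass the test (adjusted p = 0.21). All 4 remission arrays lay below all 7 nephritic ones, and Ecm1 was 2.19-fold lower there (−1.13 ± 0.27, 95% interval −1.70 to −0.56, adjusted p = 0.011), a call kept without any single array. Against prenephritic arrays the difference was −0.64 ± 0.28 (unadjusted p = 0.033, adjusted p = 0.24), with 2 of 4 remission arrays below the whole prenephritic range. The order of its means was thus nephritic, prenephritic, remission, and neighbours in that order did not pass the test.

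Fn1 encodes fibronectin, the adhesive glycoprotein that integrins bind to assemble matrix, and its groups overlapped throughout. Prenephritic values ran from 8.51 through a median of 8.85 to 10.41, and nephritic values from 8.66 through 9.36 to 10.13. Remission values were 9.51, 9.63, 7.52 and 9.32. Prenephritic replicate 2 was the highest array of all and remission replicate 3 the lowest. The group means were 9.08 ± 0.67 (SD, n = 6), 9.48 ± 0.55 (SD, n = 7) and 8.99 ± 0.99 (SD, n = 4). Its differences were 0.40 ± 0.37 for nephritic minus prenephritic (adjusted p = 0.56), −0.49 ± 0.41 for remission minus nephritic (0.48) and −0.09 ± 0.42 for remission minus prenephritic (0.92). The 95% intervals, −0.38 to 1.17, −1.36 to 0.38 and −0.99 to 0.81, leave room for changes of more than 1 log2 unit in the first and second. Without prenephritic replicate 2 and remission replicate 3, a choice made after their values were seen, the differences were 0.66 (adjusted p = 0.079), 0.0041 and 0.67 (adjusted p = 0.35).

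**Figure D2:**
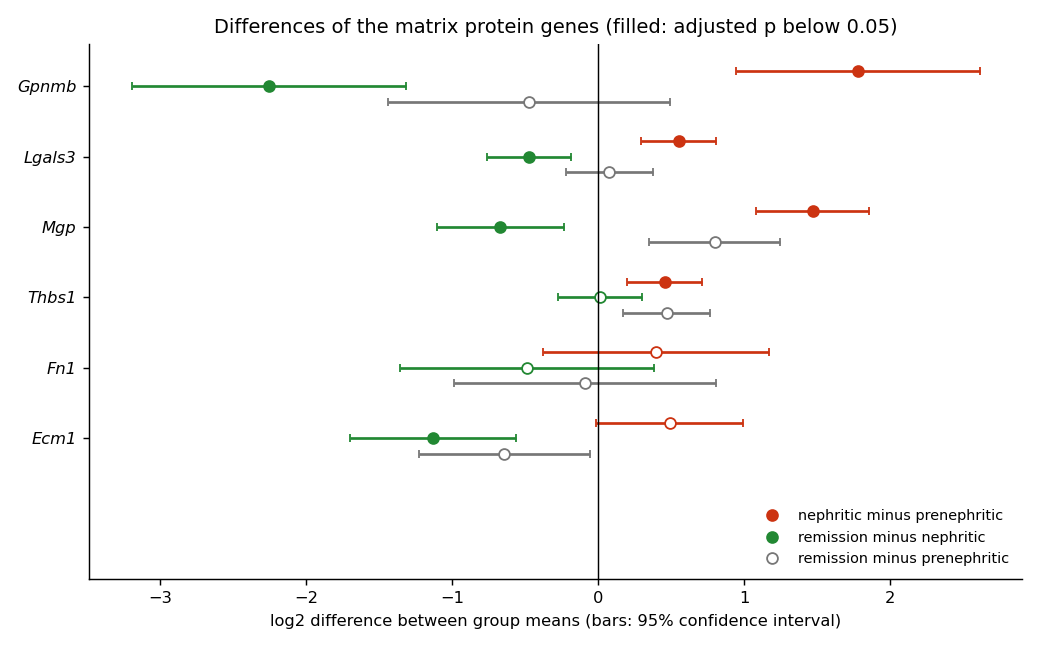
Log2 differences between group means for the 6 genes in the 3 comparisons, with 95% confidence intervals from limma as bars; filled points passed the adjusted threshold of 0.05 and open points did not. Gpnmb reaches furthest in both directions (1.78 and −2.25), and all 6 points of remission minus prenephritic are open.

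The 6 genes varied to different degrees within a group. The residual SD around the group means was 0.77 for Gpnmb and 0.71 for Fn1, at the 96.8th and 96.1th percentile of all genes, where the median gene had 0.18. It was 0.46 for Ecm1, 0.35 for Mgp, and 0.23 for both Lgals3 and Thbs1. Gpnmb and Lgals3 went together from array to array, with Pearson's r = 0.841 over 17 arrays and 0.639 on deviations from the group means. Lgals3 and Mgp had r = 0.819 and 0.606, and Thbs1 and Mgp had 0.705 and 0.372. Mgp and Ecm1 had 0.475 and 0.532, and Fn1 and Thbs1 had 0.439 and 0.512. Gpnmb and Ecm1 had r = 0.393 over all arrays and −0.386 within groups. Not every pair is listed, and no r was tested. These correlations describe 17 arrays that share their groups, their cell makeup and their normalization.

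**Figure D3:**
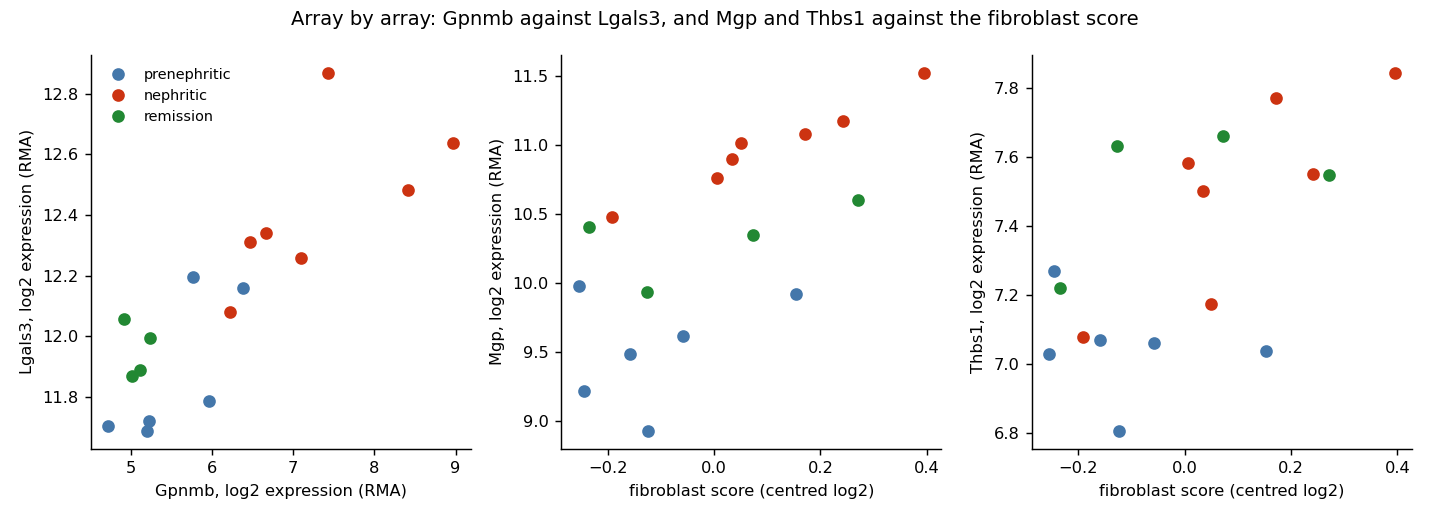
Each point is an array (6 prenephritic, 7 nephritic, 4 remission), with log2 expression on the vertical axes; the left panel plots Lgals3 against Gpnmb, and the middle and right panels plot Mgp and Thbs1 against the fibroblast score, the mean centred log2 value of 23 markers. Lgals3 rises with Gpnmb (r = 0.841 over 17 arrays), and Mgp and Thbs1 rise with the score within groups (r = 0.630 and 0.523).

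The genes whose values followed each member most closely were taken by Pearson's r over the 17 arrays. For Gpnmb these were Cd274 (r = 0.950), which encodes PD-L1, Hmox1 (0.935), the haem-degrading enzyme, and Cd5l (0.926), a secreted macrophage scavenger protein. Each of these 3 was higher in nephritic than prenephritic arrays (Cd274 by 0.99, Hmox1 by 1.01 and Cd5l by 1.84, limma adjusted p = 0.0048, 0.0023 and 0.010). They were chosen for following Gpnmb across the groups, so these differences come with the choice and are no separate result. On deviations from group means the closest to Gpnmb was Dcstamp (0.861), a fusion protein of osteoclasts and giant cells, followed by Actn1 (0.854) and Dusp5 (0.848). For Mgp they were the chemokine gene Ccl8 (0.942), Gabarap (0.941), an autophagy gene, and Sorbs3 (0.933), and within groups Bri3 (0.883), Tbcb (0.874) and Bgn (0.870), which encodes the matrix proteoglycan biglycan. Lgals3 was followed by Tmem38b (0.935), Vat1 (0.918) and Stx11 (0.916), and within groups by Wnt6 (0.872), Anxa6 (0.861) and Tmem38b (0.853). Thbs1 was followed by Cald1 (0.876), Eva1c (0.786) and Cavin1 (0.785), where Cald1 encodes the actin-binding caldesmon, and within groups by Gm9725 (0.834), Fbxl17 (0.807) and Mageb3 (0.804). Ecm1 was followed by Rhbdd3 (0.922), Manbal (0.920) and Snx3 (0.899), and within groups by Maf1 (0.896), Slc2a8 (0.895) and Timm17b (0.892). Fn1 had the loosest neighbours, Pfdn4 (0.782), Pde2a (0.765) and Atrnl1 (0.736), and within groups Tmem154 (0.817), Cd300lg (0.813) and Dbil5 (0.763). The signals of Gm9725, Mageb3, Eva1c and Dbil5 had means below the lower quartile of all genes (4.99) in every group, and those of Cd5l and Dcstamp in prenephritic and remission arrays. In each case these are the highest correlations over all other named genes, chosen for their size, and the arrays share groups and normalization.

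Among 24 measured genes of receptors and binding partners of these proteins, 7 rose and 3 fell between prenephritic and nephritic arrays, where 6.74% of all genes rose and 5.32% fell. Their median difference was 0.17, beside −0.02 over all genes. The 7 became 4 without nephritic replicates 1, 4 or 5. Cd44, a receptor for hyaluronan and osteopontin, rose by 0.73 ± 0.13 on the log2 scale (adjusted p = 0.0014). Sdc1, a heparan sulfate proteoglycan, rose by 0.95 ± 0.25 (adjusted p = 0.0195), and Sirpa, the CD47-binding receptor, by 0.37 ± 0.09 (0.012). Itga5, the integrin subunit dedicated to fibronectin, rose by 0.41 ± 0.11 (0.023). Cd36, the scavenger receptor for thrombospondin and oxidised lipid, fell, with 11.90 ± 0.17 (SD, n = 6) in prenephritic and 10.98 ± 0.22 (SD, n = 7) in nephritic arrays, a difference of −0.92 ± 0.11 (adjusted p = 5.6e-05). All 7 nephritic arrays lay below all prenephritic ones for Cd36, and likewise for Itga8, an integrin subunit of mesangial cells that binds RGD ligands (−0.90 ± 0.15, adjusted p = 9.9e-04). The other 4 of these 10 genes, named after their values were seen, were Lamp1 (0.15), Itgb7 (−0.93), Cd47 (0.32) and Lgals3bp (0.47), whose calls were kept in 9, 8, 6 and 8 of 17 refits without 1 array. Itgav and Itgb1, subunits shared by many matrix receptors, had differences of 0.23 (adjusted p = 0.46) and 0.25 (0.0502).

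In remission, 7 of the 24 receptor genes were lower and 3 higher than in nephritic arrays, where 10.0% of all genes were lower and 3.27% higher, with a median of −0.29 beside −0.03. Cd44 fell by 0.80 ± 0.15 (adjusted p = 0.0021), Itga5 by 0.72 ± 0.12 (0.0014) and Lrp1, an endocytic receptor, by 0.56 ± 0.14 (0.015). Cd36 was higher by 0.55 ± 0.12 (0.0079) and Itga8 by 0.87 ± 0.17 (0.0035). Between remission and prenephritic arrays none of the 24 passed by limma, and 1 did, as a fall, without prenephritic replicate 6. The calls of Cd44, Cd36, Itga8, Sirpa and Sdc1 in the first comparison, and of Cd44, Cd36, Itga8 and Itga5 in the second, were kept in all 17 refits without 1 array. Itga5 in the first was lost without prenephritic replicates 1 or 5, and Lrp1 in the second without remission replicates 2 or 3, with adjusted p up to 0.052 and 0.072. The count of 7 that fell became 3 without remission replicates 1 or 2, and 4 without remission replicate 3. The Sdc1 gene is also a plasma cell marker, and Itga8 is also on the list of fibroblast and mesangial markers.

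**Figure D4:**
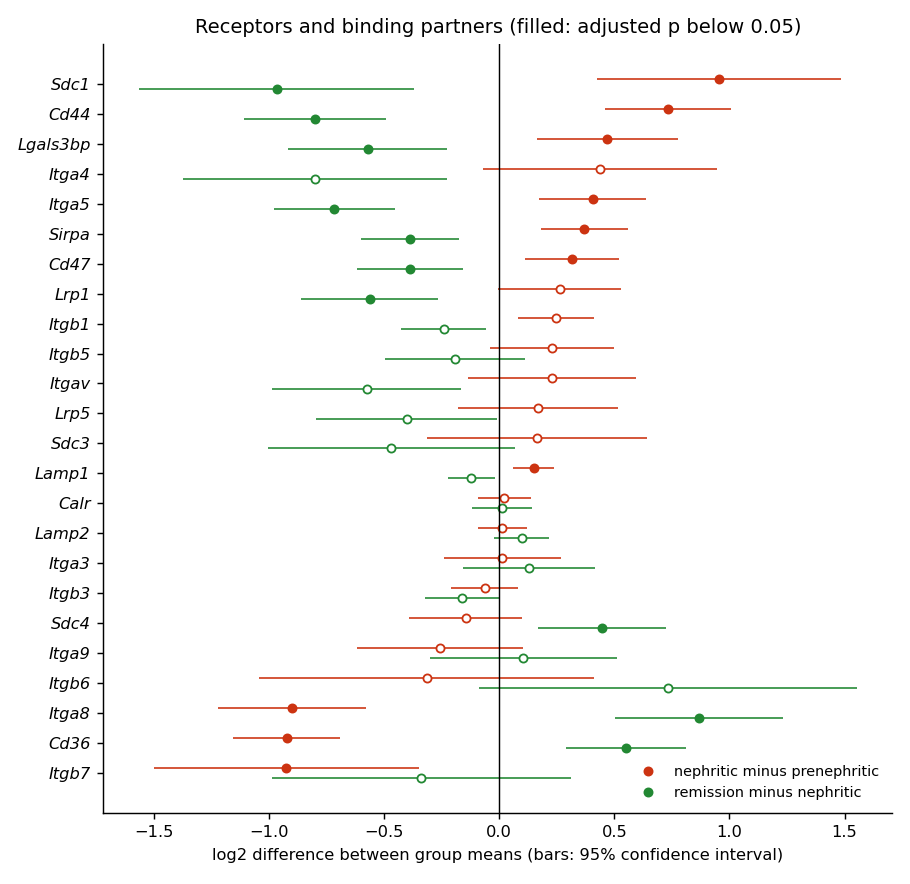
Log2 differences with 95% confidence intervals for 24 receptor and binding partner genes, nephritic minus prenephritic and remission minus nephritic, sorted by the first; filled points passed the adjusted threshold of 0.05. Cd44 and Sdc1 lie to the right in the first and to the left in the second comparison, and Cd36 and Itga8 the reverse.

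Of 29 other matricellular genes measured, 2 rose with nephritis, Tgfbi and Tnc, and none fell. That count is near the 6.74% of all genes that rose, and the median difference was 0.0048. Tgfbi, a matrix adapter protein abundant in macrophages, was at 13.14 ± 0.04 (SD, n = 6), 13.37 ± 0.04 (SD, n = 7) and 13.12 ± 0.09 (SD, n = 4) in prenephritic, nephritic and remission arrays. It rose by 0.23 ± 0.04 (adjusted p = 0.0029) and fell by 0.26 ± 0.05 in remission (0.0035). The groups did not overlap in either comparison, and both calls were kept in all 17 refits. Tnc, tenascin-C, rose by 0.65 ± 0.19 (adjusted p = 0.030), a call lost without prenephritic replicates 1, 2, 3 or 5 or nephritic replicates 1, 5 or 7 (adjusted p up to 0.065). In remission 2 of the 29 were lower than in nephritic arrays, Tgfbi and Comp (−0.49 ± 0.16, adjusted p = 0.048), where 10.0% of all genes were lower. The Comp call was lost without prenephritic replicates 2, 3, 5 or 6, nephritic replicates 1, 2, 3, 4 or 7, or remission replicates 1 or 2 (adjusted p up to 0.22). In the first comparison the count of 2 became 5 without prenephritic replicate 6. Ccn2, connective tissue growth factor, had a difference of 0.74 ± 0.25 with nephritis (adjusted p = 0.070), and Sparc one of 0.27 ± 0.24 (0.56).

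Among the 8 other measured galectin genes, Lgals1 alone passed the test in nephritic against prenephritic arrays. In that comparison 6.74% of all genes rose and 5.32% fell, and between nephritis and remission 3.27% rose and 10.0% fell. Lgals1, galectin-1, rose by 0.28 ± 0.05 (adjusted p = 0.0016), with all 7 nephritic above all prenephritic arrays. In remission Lgals1 (−0.21 ± 0.06, adjusted p = 0.021), Lgals9 (−0.63 ± 0.17, 0.022) and Lgals8 (−0.33 ± 0.09, 0.023) were lower than in nephritic arrays, and none was higher. None of these 3 remission calls held without remission replicate 1 or without remission replicate 2, when their adjusted p reached 0.090, 0.11 and 0.10. Lgals9 and Lgals8 did not pass between nephritic and prenephritic arrays (0.38 and 0.19, adjusted p = 0.12 and 0.15). The count of 1 in that comparison became 2 without prenephritic replicate 3 or without nephritic replicate 2.

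Of 40 measured genes of collagens, laminins, nidogens, proteoglycans and crosslinking enzymes, none rose and 3 fell with nephritis, where 6.74% of all genes rose and 5.32% fell, with a median of 0.06. Nid2, which encodes nidogen-2, fell by 1.02 ± 0.12 (adjusted p = 6.5e-05) and Lamc1, a laminin chain gene, by 1.07 ± 0.17 (6.7e-04), both in all 17 refits, and Col4a2, a collagen IV chain gene, by 0.60 ± 0.19 (0.046). The Col4a2 call was lost without prenephritic replicates 1, 2, 3, 4 or 6, nephritic replicates 1, 2, 3, 4 or 6, or remission replicates 1 or 3 (adjusted p up to 0.093). Lamc1 was higher again in remission, by 0.95 ± 0.20 (adjusted p = 0.0044), where 3.27% of all genes were higher and 10.0% lower. Nid2 did not pass in that comparison. Its remission minus prenephritic difference was −0.76 ± 0.14 (limma unadjusted p = 6.6e-05, adjusted p = 0.079), with all 4 remission arrays below all prenephritic ones. Lox, which crosslinks collagen, was lower in remission than nephritic arrays (−1.36 ± 0.34, adjusted p = 0.015), a call lost without remission replicate 2 (0.060). The count of 1 that fell became 2 without nephritic replicate 2 or remission replicate 4, and the count of 1 that rose became 2 without nephritic replicate 3 or remission replicate 4. The fibrillar collagen gene Col1a1 had a difference of 0.64 ± 0.20 with nephritis (adjusted p = 0.054), and the proteoglycan gene Bgn one of 0.70 ± 0.24 (0.064). The count of genes that rose, 0 of 40 by limma, was 2 without prenephritic replicate 6 and 4 without nephritic replicate 2, and 1 without prenephritic replicates 4 or 5, nephritic replicate 5 or remission replicate 4.

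Genes that hold, free or sense latent TGF-β are linked to this group through thrombospondin-1, and the list also holds family relatives of them such as Ltbp2. Of 19 measured, 3 rose and 2 fell with nephritis, where 6.74% of all genes rose and 5.32% fell. Between nephritis and remission 4 fell and 1 rose, where 10.0% of all genes fell and 3.27% rose. Ltbp3, which tethers latent TGF-β to the matrix, was at 7.95 ± 0.16 (SD, n = 6), 8.56 ± 0.16 (SD, n = 7) and 8.00 ± 0.20 (SD, n = 4), a rise of 0.61 ± 0.09 (adjusted p = 4.6e-04) and a difference of −0.56 ± 0.11 in remission (0.0026). The groups did not overlap in either comparison, and both calls were kept in all 17 refits. Ltbp2 rose by 1.39 ± 0.25 (adjusted p = 0.0014) and was lower in remission by −1.34 ± 0.28 (0.0047), from means below the lower quartile of all genes. Plaur, the urokinase receptor, rose by 1.03 ± 0.28 (0.026), and was lower in remission by −1.31 ± 0.32 (0.013). The first Plaur call was lost without prenephritic replicates 3, 5 or 6 or nephritic replicate 1 (adjusted p up to 0.066), and the second without remission replicates 1 or 2 (up to 0.057). Tgfbr1, the type I receptor, fell by 0.66 ± 0.17 (adjusted p = 0.020) and was higher in remission by 0.64 ± 0.20 (0.042). The second Tgfbr1 call was lost without nephritic replicates 1, 2, 4, 6 or 7 or any 1 of the 4 remission arrays (adjusted p up to 0.097). Nrros, which tethers latent TGF-β on macrophages, fell in remission by 0.50 ± 0.11 (0.0070). Ltbp4 fell with nephritis by 0.27 ± 0.08 (0.033), a call lost without prenephritic replicates 3, 5 or 6 or nephritic replicates 2, 3, 4, 5 or 6 (adjusted p up to 0.080). Tgfb1 itself did not pass in either comparison (0.08 and −0.50, adjusted p = 0.85 and 0.12).

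Genes of Gla protein carboxylation and of the bone morphogenetic proteins that Mgp binds were examined next to Mgp. Of 8 measured, none rose and Bmp2 fell with nephritis, by 1.27 ± 0.34 (adjusted p = 0.021), a call lost without prenephritic replicate 3 (0.051). Over all genes, 6.74% rose and 5.32% fell with nephritis, and 3.27% rose and 10.0% fell in remission. The 2 enzymes of the vitamin K cycle, Ggcx and Vkorc1, had differences of −0.22 and −0.02 (adjusted p = 0.29 and 0.94), and none of the 8 passed in remission against nephritic arrays. Of 11 measured genes of the MiT transcription factors and lysosomal lipid handling, which are known regulators and companions of Gpnmb, 2 rose with nephritis and none fell. These were Npc1 (0.44 ± 0.11, adjusted p = 0.015), a lysosomal cholesterol transporter, in all 17 refits, and Lipa (0.22 ± 0.07, 0.035), the lysosomal acid lipase, whose call was lost without prenephritic replicates 1, 2, 3 or 4 or nephritic replicates 1, 2, 4, 5 or 6 (adjusted p up to 0.077). Npc1 was lower again in remission (−0.43 ± 0.12, adjusted p = 0.032), a call lost without nephritic replicates 1, 3 or 7 or remission replicates 1 or 2 (adjusted p up to 0.15). Mitf and Tfeb had differences of −0.32 (adjusted p = 0.13) and −0.11 (0.65) with nephritis. None of the genes of these lists, nor of the galectin, matricellular, structural and TGF-β lists, passed between remission and prenephritic arrays by limma with all arrays, beside the 0.00634% of all genes, and 1 structural gene fell without prenephritic replicate 6.

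Fibroblasts, mesangial cells and tubule cells are known to make several of these proteins, so their markers were set beside them. Of 23 fibroblast and mesangial markers, 3 rose (Vim, Tagln and Acta2) and 1 fell (Itga8) with nephritis, and 1 rose and 3 fell in remission. Over all genes, 6.74% rose and 5.32% fell with nephritis, and 3.27% rose and 10.0% fell in remission. The difference with nephritis was above 0 for 15 of the 23, with a median of 0.18 beside −0.02 over all genes. Vim is also expressed by macrophages. The mean of the 23 ran from −0.26 to 0.15 in prenephritic, −0.19 to 0.39 in nephritic and −0.23 to 0.27 in remission arrays. In the order prenephritic, nephritic, remission, Acta2 was at 6.94, 8.01 and 7.52, Col3a1 at 7.75, 8.56 and 7.84, and Pdgfrb at 7.49, 8.00 and 7.37. Dcn was at 7.43, 7.15 and 7.60, Pdgfra at 5.07, 4.90 and 4.99, and Lum at 3.83, 3.47 and 3.70. Of these 6, chosen after their values were seen, Acta2 alone passed the test with nephritis, and 6 of the 23 had a mean below the lower quartile of all genes. On deviations from the group means, this score had r = 0.630 with Mgp, 0.523 with Thbs1, 0.509 with Fn1 and −0.03 with Gpnmb over 17 arrays. A score of 20 endothelial markers had 0.503, 0.459, 0.508 and 0.340 with the same 4 genes, so these correlations are not particular to fibroblast markers. With the fibroblast score as a covariate, the nephritic minus prenephritic difference was 1.21 for Mgp (adjusted p = 0.00063) and 1.81 for Gpnmb (0.030). In that fit Lgals3 had 0.47 (adjusted p = 0.057), Thbs1 0.32 (0.17) and Fn1 −0.024, so the count that rose was 2 of 6 in place of 4. Between remission and nephritic arrays 2 of 6 fell in that fit in place of 4, with Lgals3 at −0.43 (adjusted p = 0.057) and Mgp at −0.54 (0.055). Gpnmb had r = 0.619 within groups with the markers of parietal and injured tubule epithelium, of which 1 of 12 (Vcam1, also made by macrophages) rose, and whose mean ran from −0.95 to 0.13, −0.77 to 1.11 and −0.54 to 0.83. Fn1 had r = 0.654 within groups with the monocyte markers, whose mean ran from −0.89 to 0.64, 0.06 to 0.48 and −0.81 to 0.31. With the tubule score as a covariate, 2 of the 6 genes were lower in remission than nephritic arrays in place of 4, and the Ecm1 and Mgp calls were lost (adjusted p = 0.059 and 0.054). Without the arrays at the extremes of that score, nephritic replicate 3 and remission replicate 2, Gpnmb alone of the 6 passed in that comparison. The part of fibroblasts and mesangial cells, endothelial cells, tubule cells, monocytes and plasma cells in these differences was not tested.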

How the data were processed

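Log2 expression values of 17 arrays were analysed as the authors deposited them. They were made with RMA (background correction, quantile normalization and probe summary), per the submitters' processing notes, with no version; how probes were assigned to genes is not stated there. RMA gives the probe values of all arrays one distribution before their summary, so a change in total RNA is not visible. Array medians of the deposited values ran from 7.49 to 7.68. Groups were taken from the sample titles. Of 16539 probe sets, 15780 carried 1 symbol, 64 were controls and 695 others had none; 15752 were found in the RefSeq table. Group means were compared with limma 3.58.1 in R 4.3.3 (14 residual degrees of freedom, two-sided, Benjamini-Hochberg over 15780 genes). The model was tested on simulated data. Marker scores are means of centred log2 values. The genes and lists were chosen with earlier results of these data known. Named were all members, up to 5 genes of a list with the smallest p among those that passed, up to 2 that did not, and the 3 most correlated genes. The 6 motifs were chosen with the sequences in view. Alternatives changed the filter, normalization, prior, weights, block, fold minimum and covariates, and left out arrays.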

Additional observations from a re-analysis of the deposited data

Results flagged for a closer look

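Fn1 has a value apart from the rest of its group in 2 places, among 18 combinations of gene and group examined with Dixon's test. Prenephritic replicate 2 is highest at 10.41, with a gap to the next array of 0.691 of the group's range against a critical value of 0.625. Remission replicate 3 is lowest at 7.52, with 0.855 against 0.829. Chance alone gives about 1 such finding in 20 groups. The Fn1 differences without these 2 arrays stand beside the gene above.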

How the results depend on the processing

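Over 31 alternatives, the 6 genes in 3 comparisons gave 558 values, of which 508 kept their direction and side of the threshold, 36 lost a call, 1 gained one and 13 changed sign. Only genes that passed in the main fit had a call to lose. For remission minus nephritic, Mgp lost it in 14 of the 31 alternatives, Lgals3 in 9, Ecm1 in 4 and Gpnmb in 1. For nephritic minus prenephritic, Thbs1 lost it in 5, Lgals3 in 2, Gpnmb in 1 and Mgp in 0. For nephritic minus prenephritic, 1064 genes rose and 840 fell. Subtracting medians left 530 that fell, leaving out prenephritic replicate 5 together with nephritic replicate 6 left 477, and a tubule covariate raised them to 1480. With the fibroblast score as covariate 583 rose and 386 fell, among them 2 of the 6 genes that rose, with Fn1 at −0.024. When at least a 1.5-fold change was required 78 rose and 27 fell, and 1 of the 6 rose. For remission minus nephritic, 516 rose and 1584 fell. Array weights gave 1239 and 2385, and the replicate block 1064 and 1823. A 1.5-fold minimum gave 4 and 34, with 0 of the 6 lower. The tubule score as covariate gave 881 lower and 2 of the 6, and the fibroblast score 2 of the 6. Without the arrays at the tubule extremes 206 rose and 748 fell, 1 of the 6 among them, with Thbs1 at −0.011. Thbs1 was −0.0018 with the quantile normalization repeated. Without prenephritic replicate 2 and remission replicate 3, chosen after seeing the data, 297 rose, 1 of the 6 fell, and Fn1 was 0.0041. For remission minus prenephritic, 0 rose and 1 fell. Repeated quantile normalization gave 2 and 3, array weights 69 and 289 with 1 of the 6 higher (Mgp, 0.83, adjusted p = 0.038), and the replicate block 234 and 244. The count that fell was 3 with medians subtracted, 3 with an intensity trend and robust prior, 4 without the tubule extremes, and 0 with only the groups compared, a 1.5-fold minimum, either score as covariate or either other pair of arrays left out. Lgals3 was −0.015 with the tubule score, and Fn1 0.67 without the pair chosen after seeing the data. With 1 array left out, nephritic minus prenephritic gave 870 to 1102 higher, 569 to 1009 lower and 3 to 4 of the 6 higher. Remission minus nephritic gave 182 (without remission replicate 2) to 981 (without remission replicate 4) higher, 839 to 1940 lower (the same arrays) and 2 to 4 of the 6 lower, with Thbs1 from −0.056 to 0.11 and Fn1 from −0.70 to 0.0041. Remission minus prenephritic gave 0 to 28 higher and 0 to 171 lower (both most without prenephritic replicate 6) and 0 of the 6, with Fn1 from −0.30 to 0.40, at 0.17 without prenephritic replicate 2 and 0.40 without remission replicate 3. No label pairs same-numbered arrays. Of 14 such pairs, 8 had residual correlations over 0.1, and the values ran from −0.26 to 0.80. Whether these arrays share a batch or an origin was not tested. With the replicate block, 945 rose and 755 fell with nephritis, and Thbs1 was 0.45 (adjusted p = 0.057), leaving 3 of the 6, while 4 fell in remission. The cause of these shifts was not tested. Signals near the lower quartile limit Gpnmb in prenephritic and remission arrays, and 4 remission arrays limit precision.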
